A study of Mus musculus with 12 samples.

Results

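The genes described here are 36 genes of the synaptic vesicle and of transmitter release, chosen by name from the 45777 NCBI gene identifiers in the tables. They comprised 9 synaptotagmins, the calcium sensor *Doc2b*, 3 SV2 proteins, 3 synapsins, 2 members of the synaptophysin family, 4 SNARE proteins, 5 proteins that regulate or take apart SNARE complexes, 3 Rab3 GTPases, and 6 proteins of the active zone and of vesicle priming. All 36 had values in each of the 12 libraries. Expression was measured by bulk sequencing of total RNA from the ventral spinal cord of E12.5 mouse embryos. The tissue came from the brachial or the lumbar level and was trimmed around the *Hb9::GFP* reporter, in which a promoter of motor neurons (MNs) drives GFP. The reporter guided the dissection and cells were not sorted, so interneurons, progenitors, glial precursors and vessels of the ventral cord contribute to every library. At each level, 3 libraries came from *Isl2* +/- embryos (heterozygotes) and 3 from *Isl2* -/- embryos (*Isl2* KO), in which both alleles of this LIM-homeodomain transcription factor are disrupted throughout the body. No wild-type embryos were included, and the controls also carry 1 disrupted *Isl2* allele. The study names 3 animals of each genotype for both levels, and the labels do not tie libraries to animals.

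Transmitter is stored in synaptic vesicles, which are loaded, tethered, docked at the active zone and primed. Membrane fusion is carried out by SNARE proteins, with a vesicle SNARE of the Vamp family pairing with syntaxin and SNAP25 on the plasma membrane, and synaptotagmins couple fusion to the entry of calcium. At this embryonic stage spinal motor axons are growing into the limbs and central synapses are only beginning to form, and many of these proteins are made before synapses mature.

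The deposited values are TPM, a relative transcript abundance with a fixed total in every library, scaled to transcript length so that genes can be compared with each other. To compare libraries, TPM was divided by a size factor for each library (median of ratios). All levels given here in TPM are these rescaled values, which no longer have a fixed total. The aligned bases ranged from 4.48 to 6.64 Gb (gigabases) over the libraries, with the least in the brachial *Isl2* KO library 3. Differences are on the log2(TPM + 0.1) scale with the SE from limma, and adjusted p-values follow Benjamini and Hochberg over all genes tested, those with a mean TPM of at least 0.5 in the libraries compared. Between genotypes a gene was counted as changed at the threshold of the study, a log2 fold change beyond 0.5 with an unadjusted p under 0.05. *Isl2* itself averaged 8.89 ± 0.713 TPM (SD, n = 3) in brachial heterozygotes and 5.91 ± 1.40 in brachial *Isl2* KO, and 9.36 ± 0.937 against 7.34 ± 0.850 at the lumbar level. Its libraries did not overlap between genotypes at either level (lower without overlap in 10.3% of all genes for the brachial and 5.51% for the lumbar libraries). The difference passed the threshold of the study at the brachial level (−0.61, unadjusted p = 0.011, adjusted p = 0.36, limma) and not at the lumbar level (−0.35, unadjusted p = 0.029, adjusted p = 1, limma). *Isl2* RNA was still present in all *Isl2* KO libraries, at 4.46 to 8.21 TPM.

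Among the markers of neurons, *Tubb3*, a tubulin of postmitotic neurons, averaged 2592 ± 256 TPM (SD, n = 6) in brachial and 2605 ± 226 in lumbar libraries. *Mnx1*, which encodes the MN factor Hb9, averaged 43.5 ± 2.93 and 52.9 ± 12.1 TPM. Both labelled levels therefore carried neuronal and MN transcripts. The summed TPM of 7 skeletal muscle genes was 3.29 to 6.89 over the 12 libraries, with *Myod1* and *Ckm* listed at 0 in every one and 4 of the 7 under 1 TPM throughout. That of 9 sensory ganglion genes was 13.5 to 20.5, with *Scn10a* listed at 0 and 3 of the 9 under 1 TPM throughout. *Pou4f1*, a factor also made by interneurons of the cord, took most of the latter sum, at 10.2 to 17.0 TPM.

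Promoter sequence from RefSeq (GRCm38.p6, 250 bases before to 50 after the start) was matched for 27 of the 36 genes, and *Syt4*, *Syt5*, *Syt7*, *Syt13*, *Doc2b*, *Syn3*, *Snap25*, *Vamp2* and *Rims2* had none. The windows were searched on both strands for 4 motifs known from neuronal promoters. These were the left part TTCAGCACC and the right part GGACAGC of RE1, the element bound by the repressor REST that keeps neuronal genes off in other cells, the cAMP response element TGACGTCA, and the homeodomain core TAATTA. Of all 32851 promoter windows, 0.371% held the left part of RE1, 6.56% the right part, 1.79% the cAMP response element and 5.29% the homeodomain core. Among the 27 genes, the left part of RE1 was found in *Syn1* and *Unc13a*, the right part in *Syt6* and *Unc13a*, the cAMP response element in *Syn1*, and the homeodomain core in *Syt6*. The percentages are shares of windows, while each gene was counted once. A gene can have several windows, as *Syt6* does, so the counts and the shares are not directly comparable. The 2 stretches with the left part are shown because they are the promoters among these genes in which the least common of the 4 motifs occurs. Capitals mark the left part of RE1 in both, on the opposite strand in *Unc13a*, and also the cAMP response element in *Syn1*. The *Syn1* stretch is chrX:20921019-20921168 on the minus strand, upstream of the start, and the *Unc13a* stretch is chr8:71671716-71671745 on the minus strand, just downstream of the start.
Syn1: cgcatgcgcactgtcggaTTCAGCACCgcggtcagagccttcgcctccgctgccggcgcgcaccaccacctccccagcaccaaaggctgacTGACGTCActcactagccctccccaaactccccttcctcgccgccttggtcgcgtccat
Unc13a: ccgcgcccccGGTGCTGAAgcgacatggcc
A match of letters is a description and not a bound site. Neither of these 2 genes passed a test between levels or between genotypes, as given with their values further on.

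The 36 genes spanned a wide range of levels. Averaged over the 12 libraries, 4 lay above 100 TPM, 9 between 30 and 100, 10 between 10 and 30, 12 between 1 and 10, and *Doc2b* was below 1. The 4 most abundant were *Rab3a* at 156 TPM, *Syt4* at 132, *Snap25* at 104 and *Syt11* at 102. *Rab3a* encodes the main vesicle GTPase that recruits RIM, and *Syt4* and *Syt11* encode the synaptotagmins whose first C2 domain does not bind calcium. The neighbours in this order were mostly not separated from each other. Only 5 of the 35 neighbouring pairs kept the same order in all 12 libraries: *Syt4* above *Snap25*, *Napb* above *Nsf*, *Rims2* above *Unc13a*, *Unc13a* above *Synpr*, and *Rab3b* above *Doc2b*.

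**Figure D1:**
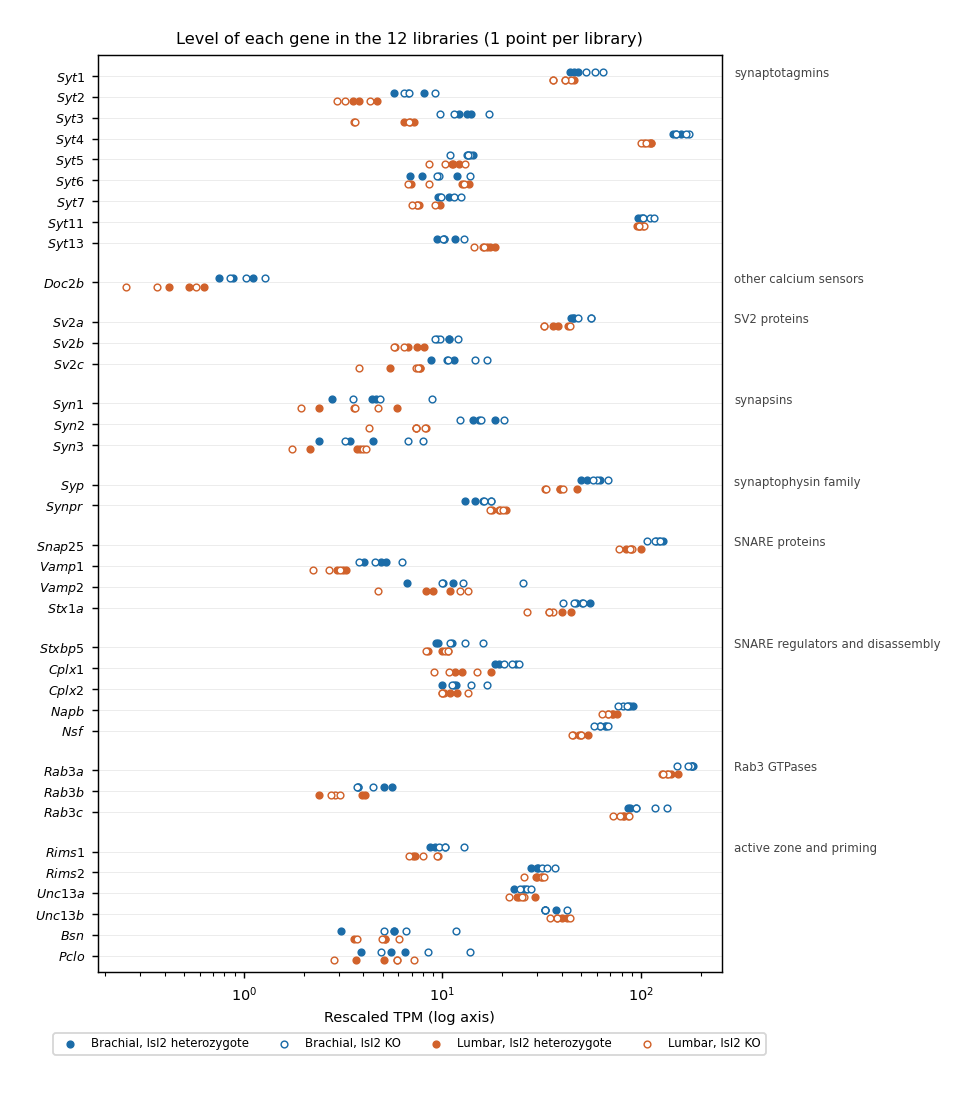
Rescaled TPM of each of the 36 genes on a log axis, grouped by class, with 1 point for each library. Blue points are brachial and orange points lumbar, filled for *Isl2* heterozygotes and open for *Isl2* KO. *Rab3a*, *Syt4*, *Snap25* and *Syt11* lie furthest to the right, *Doc2b* alone lies near or below 1 TPM, and for most genes the orange points lie to the left of the blue ones.

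Within families the level was unequal. Among the synaptotagmins, *Syt4* and *Syt11* together made up 69.2% ± 1.08 (SD, n = 6) of the summed TPM of the 9 genes in brachial libraries and 68.3% ± 2.56 in lumbar ones. *Syt1*, the sensor of fast synchronous release, averaged 46.6 TPM over the 12 libraries and its close relative *Syt2* 5.45 TPM. *Syt7*, a sensor of slower release, averaged 9.35 TPM. Of the vesicle SNAREs, *Vamp2* averaged 11.2 TPM and *Vamp1* 3.84 TPM, against 104 TPM for *Snap25* and 42.1 TPM for *Stx1a*, their partners on the plasma membrane. The ATPase *Nsf*, which takes spent SNARE complexes apart, averaged 56.2 TPM and its adaptor *Napb* 77.2 TPM. The scaffolds of the active zone *Bsn* and *Pclo* stayed low, at 5.53 and 6.15 TPM, while the priming factors *Unc13b* and *Unc13a* averaged 37.3 and 25.3 TPM.

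Replicate spread differed widely between these genes. The pooled SD within groups, on the log2 scale, was smallest for *Napb* (0.055), *Syt11* (0.055) and *Syt4* (0.07), and largest for *Syn1* (0.59), *Vamp2* (0.58), *Syn3* (0.57), *Pclo* (0.56) and *Bsn* (0.45). The median was 0.18 over the 36 genes and 0.17 over the 16736 genes tested. The values of *Vamp2* in the 3 brachial heterozygote libraries were 10.1, 11.3 and 6.63 TPM, and in brachial *Isl2* KO 9.97, 12.7 and 25.5. At the lumbar level they were 8.27, 10.9 and 9.0 TPM in heterozygotes and 12.2, 4.76 and 13.4 in *Isl2* KO. The highest and the lowest value thus both came from *Isl2* KO libraries, one at each level.

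In 3 libraries, more of the 36 genes lay far from the other libraries of their level than in any other library. Each library was set against the mean of the other 5 libraries of its level, on the log2 scale. In the brachial *Isl2* KO library 3, 8 of the 36 genes (22.2%) lay more than 0.5 from that mean, all above it. Of all genes tested, 12.8% lay that far above. In the brachial heterozygote library 3, 6 (16.7%) lay that far below, against 9.97% of all genes. In the lumbar *Isl2* KO library 2, 10 (27.8%) lay that far below, against 8.07% of all genes. *Sv2c*, *Syn1*, *Syn3*, *Vamp2* and *Pclo* were among the genes that lay apart in each of these 3 libraries. The summed TPM of 9 blood genes was 7078 in the brachial *Isl2* KO library 3 and 2487 to 4192 in the other 5 brachial libraries. In the lumbar *Isl2* KO library 2 it was 5071, within the lumbar range of 2452 to 5107. What sets these libraries apart was not tested.

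**Figure D2:**
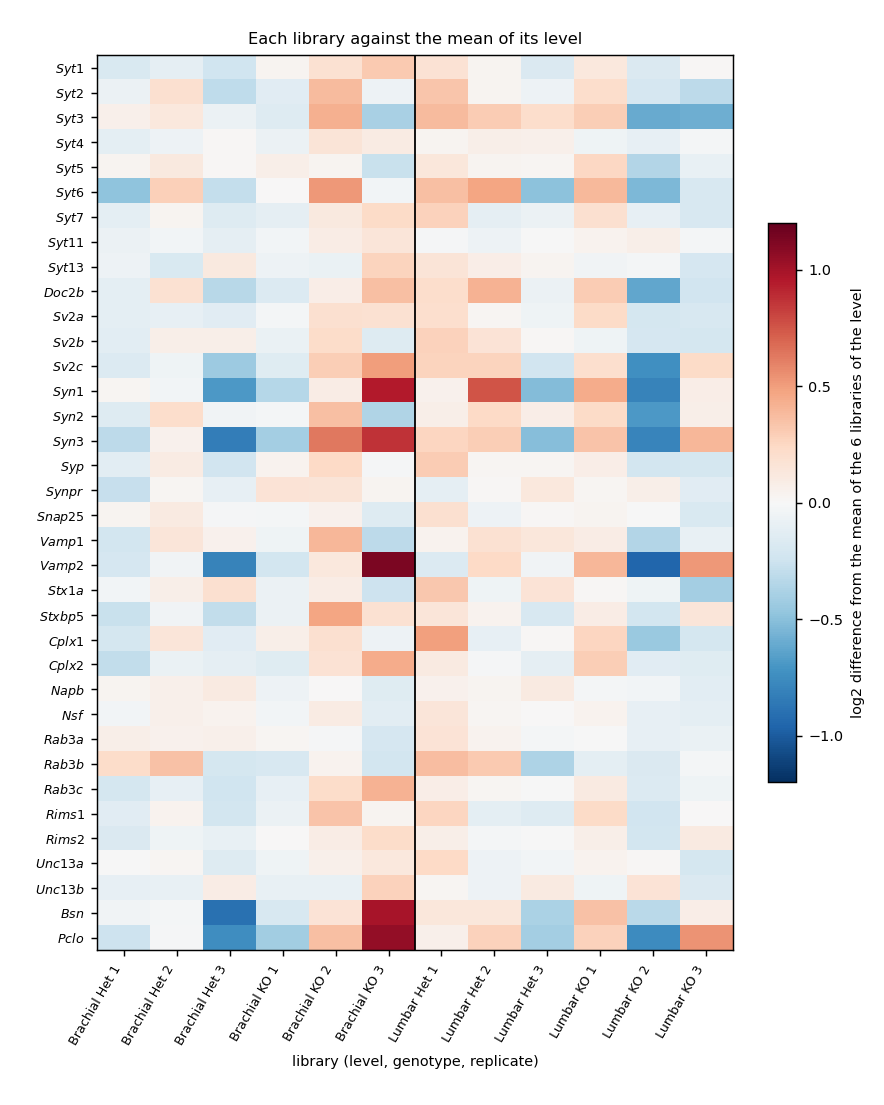
Difference of each library from the mean of the 6 libraries of its level, on the log2 scale, with red for higher and blue for lower, the 36 genes in rows and the 12 libraries in columns. *Syn1*, *Syn3*, *Vamp2*, *Bsn* and *Pclo* are blue in the brachial heterozygote library 3 and red in the brachial *Isl2* KO library 3, and *Syn1*, *Syn3*, *Vamp2* and *Pclo* are blue in the lumbar *Isl2* KO library 2, while the row of *Napb* stays pale throughout.

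The first comparison was between the 2 levels of the cord, which innervate forelimb and hindlimb. With genotype as a covariate, 21 of the 36 genes were lower at the lumbar than at the brachial level at an adjusted p under 0.05 (limma), which is 58.3% against 9.65% of the 16736 genes tested. Another 2 were higher, 5.56% against 8.88% of all genes. The median log2 difference was −0.38 for the 36 genes and 0.01 for all genes. The 6 lumbar libraries lay wholly below the 6 brachial ones for 14 genes (background 4.68%) and wholly above for 1 (background 3.64%). The summed TPM of the 36 genes ranged from 1256 to 1437 in the brachial libraries and from 969 to 1142 in the lumbar libraries, without overlap. Lower calls were spread over the classes, with 5 of 9 synaptotagmins, *Doc2b*, 3 of 3 SV2 proteins, 1 of 3 synapsins, 1 of 2 of the synaptophysin family, 3 of 4 SNARE proteins, 3 of 5 SNARE regulators, 3 of 3 Rab3 GTPases and 1 of 6 active zone and priming proteins. In bulk tissue, a smaller number of cells of a type and less RNA per cell cannot be told apart. If the brachial and lumbar tissue of 1 embryo went into 2 libraries, the 12 libraries are not independent, and a fit that takes the libraries of each level as separate samples does not account for it.

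**Figure D3:**
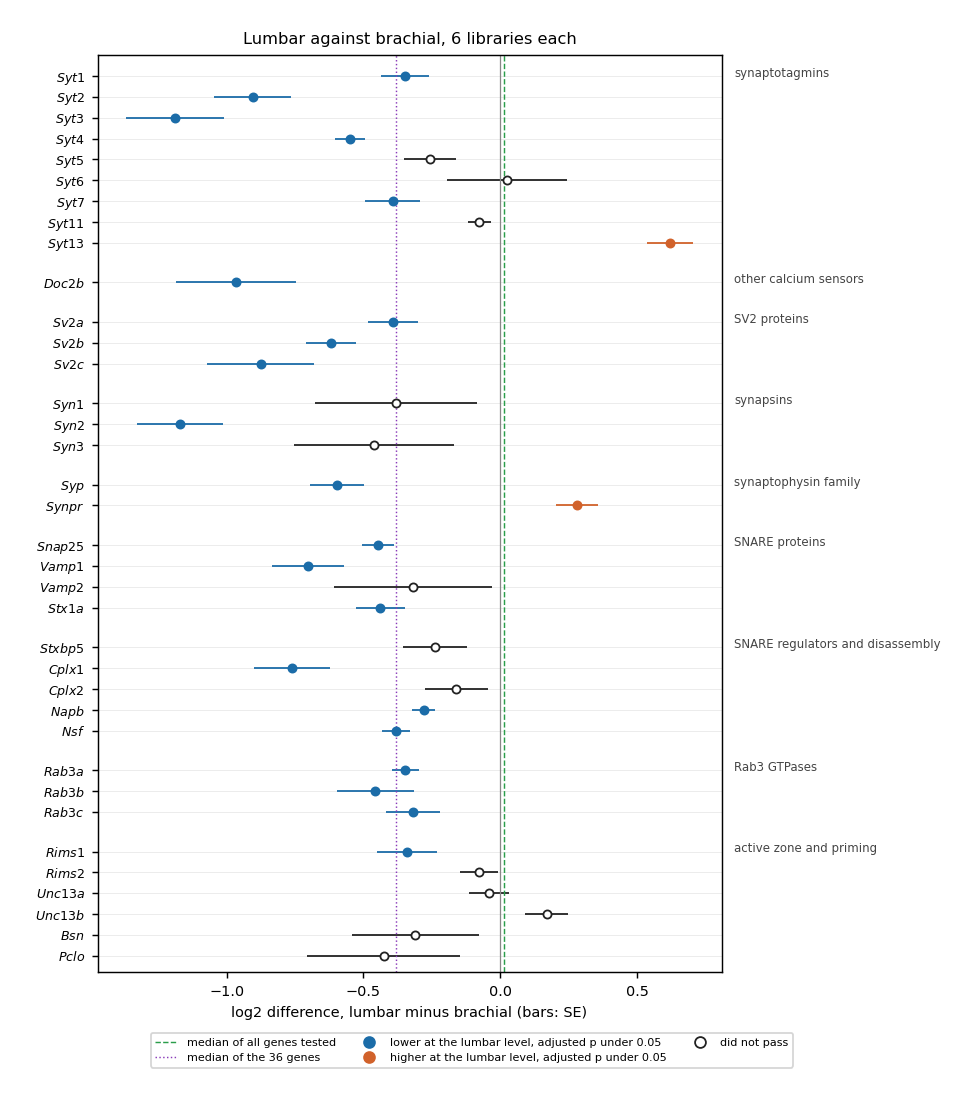
The log2 difference between lumbar and brachial libraries (6 each) for the 36 genes, with bars for the SE. Filled points passed an adjusted p of 0.05, blue for lower and orange for higher at the lumbar level, and the lines mark the medians of these genes (−0.38) and of all genes tested (0.01). *Syt3* and *Syn2* lie furthest to the left and *Syt13* furthest to the right, and *Rims2*, *Unc13a*, *Syt6* and *Syt11* lie close to 0.

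Among the synaptotagmins, *Syt3* showed the largest difference of the 36 genes. *Syt3* (gene 20981, chromosome 7 of GRCm38 from 44382773 to 44400030, plus strand) encodes a calcium sensor of high affinity. Its brachial values had a lowest, median and highest library of 9.70, 12.7 and 17.1 TPM, and its lumbar values of 3.60, 6.62 and 7.20 TPM. The 2 sets did not overlap, and the lumbar mean was 44.5% of the brachial mean (log2 difference −1.19 ± 0.18 SE, adjusted p = 0.0012). *Syt2* ranged from 5.68 (median 6.74) to 9.18 TPM in brachial and from 2.96 (median 3.68) to 4.71 TPM in lumbar libraries, also without overlap (−0.91 ± 0.14, adjusted p = 0.0013). *Syt4* lay between 144 and 174 TPM (median 154) in brachial and between 100.2 and 112 TPM (median 108) in lumbar libraries. That difference, −0.55 ± 0.05 (adjusted p = 6.1e-05), had the smallest adjusted p of the 36 genes. *Syt1* (43.9 to 64.4 TPM brachial, 36 to 45.9 lumbar) and *Syt7* (9.47 to 12.4 TPM brachial, 7.02 to 9.72 lumbar) were lower by less, at −0.35 ± 0.09 (adjusted p = 0.017) and −0.39 ± 0.10 (adjusted p = 0.017), and their levels overlapped. The call of *Syt1* was lost with size factors from the neuronal list and that of *Syt7* with replicate number as a block.

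*Syt13* moved the other way. It encodes an atypical synaptotagmin that does not bind calcium (gene 80976, chromosome 2 from 92915101 to 92956051, plus strand). Its brachial libraries had 10.2, 9.39 and 11.6 TPM in heterozygotes and 10.2, 10.1 and 12.9 TPM in *Isl2* KO. Its lumbar libraries had 18.4, 17.4 and 16.8 TPM in heterozygotes and 16.0, 16.1 and 14.3 TPM in *Isl2* KO, every one above every brachial library (0.62 ± 0.08, adjusted p = 0.00065). *Syt5*, *Syt6* and *Syt11* did not pass the test, with differences of −0.26 ± 0.09, 0.02 ± 0.22 and −0.08 ± 0.04. *Syt11* lay between 94.9 and 116 TPM in every library. *Doc2b*, a sensor of high calcium affinity linked to spontaneous and asynchronous release, was the least abundant of the genes, at 0.747 to 1.27 TPM in brachial and 0.255 to 0.631 TPM in lumbar libraries (−0.97 ± 0.22, adjusted p = 0.0095). It reached the minimum of 0.5 TPM through its brachial mean (0.984 TPM, against 0.463 TPM lumbar). It is 1 of the 21 lower genes, and at a minimum of 1 TPM, where it was not tested, 20 of 35 genes were lower (background 10.3%).

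All 3 SV2 genes, which encode transporter-like glycoproteins of the vesicle membrane, were lower at the lumbar level with no overlap. *Sv2a* lay between 44.6 and 55.8 TPM (median 47.0) in brachial and between 32.3 and 43.7 TPM (median 37.0) in lumbar libraries (−0.39 ± 0.09, adjusted p = 0.011). *Sv2b* lay between 9.22 and 11.9 TPM and between 5.72 and 8.07 TPM (−0.62 ± 0.09, adjusted p = 0.001). *Sv2c* lay between 8.73 and 16.8 TPM and between 3.81 and 7.74 TPM (−0.88 ± 0.20, adjusted p = 0.0091). *Sv2c* shares its locus and strand with the pseudogene *Gm20075*, which averaged 33.3 TPM, so its level is less certain than those of the other two.

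Of the synapsins, which coat vesicles and hold them in clusters, *Syn2* was lower at the lumbar level and *Syn1* and *Syn3* did not pass the test. *Syn2* (gene 20965, chromosome 6 from 115134902 to 115282626, plus strand) had 14.2, 18.4 and 15.4 TPM in brachial heterozygotes and 15.6, 20.3 and 12.3 TPM in brachial *Isl2* KO. Its lumbar libraries had 7.34, 8.24 and 7.38 TPM in heterozygotes and 8.17, 4.28 and 7.33 TPM in *Isl2* KO. All lumbar values were below all brachial values (−1.17 ± 0.16, adjusted p = 0.00064). *Syn1*, whose promoter stretch is printed above, lay between 2.78 and 8.87 TPM in brachial and between 1.94 and 5.89 TPM in lumbar libraries (−0.38 ± 0.30, adjusted p = 0.41). *Syn3* overlapped as widely (−0.46 ± 0.29, adjusted p = 0.3). *Syn1* lies opposite *Araf* (131.5 TPM) and *Syn3* opposite *Timp3* (18.1 TPM) and *Fbxo7* (7.34 TPM). Opposite *Unc13a*, *Unc13b* and *Rab3a* lie *Colgalt1* (26.0 TPM), *Fam214b* (18.2 TPM) and *Mpv17l2* (10.9 TPM). The library kit keeps the strand, but whether the quantification used it is not given in the sources used here.

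The 2 genes of the synaptophysin family, which encode vesicle proteins with 4 membrane spans, went in opposite directions. *Syp* fell from a median of 58.5 TPM (49.5 to 68.4) in brachial to 39.0 TPM (32.9 to 47.5) in lumbar libraries without overlap (−0.60 ± 0.10, adjusted p = 0.0019). *Synpr* rose from 16.1 TPM (12.9 to 17.6) to 19.4 TPM (17.4 to 20.9), with ranges that overlapped slightly (0.28 ± 0.08, adjusted p = 0.024). The call of *Synpr* was lost in 7 of 26 other settings, values as deposited and coverage among them. *Syp* therefore took a different share of the pair at each level, 78.7% ± 1.37 (SD, n = 6) of its summed TPM in brachial and 66.7% ± 3.56 in lumbar libraries, with no overlap between levels.

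Among the SNAREs, *Snap25* lay between 107 and 129 TPM (median 120.4) in brachial and between 77.3 and 100 TPM (median 88.0) in lumbar libraries (−0.45 ± 0.06, adjusted p = 0.00047). *Stx1a* lay between 40.4 and 55.1 TPM and between 26.7 and 44.5 TPM (−0.44 ± 0.09, adjusted p = 0.0059). *Vamp1*, the vesicle SNARE known from neuromuscular junctions, lay between 3.79 and 6.28 TPM and between 2.23 and 3.27 TPM (−0.70 ± 0.13, adjusted p = 0.0037). The levels did not overlap for *Snap25* and *Vamp1* and overlapped for *Stx1a*. *Vamp2* did not pass, with a difference of −0.32 ± 0.29 (adjusted p = 0.49).

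Of the genes that regulate or take apart SNARE complexes, *Cplx1*, *Nsf* and *Napb* were lower at the lumbar level, each without overlap, and the call of *Napb* was lost with size factors from the neuronal list. *Cplx1*, a complexin that clamps and then promotes fusion, lay between 18.3 and 24.2 TPM (median 21.3) in brachial and between 9.12 and 17.5 TPM (median 12.1) in lumbar libraries (−0.76 ± 0.14, adjusted p = 0.0033). *Nsf* lay between 58.2 and 68.0 TPM and between 45.0 and 53.9 TPM (−0.38 ± 0.05, adjusted p = 0.0006). *Napb* lay between 76.7 and 91.3 TPM and between 63.6 and 75.3 TPM (−0.28 ± 0.04, adjusted p = 0.00091). The other complexin, *Cplx2*, and the SNARE inhibitor *Stxbp5* (tomosyn) did not pass, at −0.16 ± 0.12 and −0.24 ± 0.12.

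The 3 Rab3 GTPases were lower at the lumbar level, with ranges that overlapped. *Rab3a* lay between 152 and 183 TPM in brachial and between 127 and 153 TPM in lumbar libraries (−0.35 ± 0.05, adjusted p = 0.00079). *Rab3c* lay between 85.6 and 135 TPM and between 72.3 and 87.0 TPM (−0.32 ± 0.10, adjusted p = 0.04), and *Rab3b* between 3.71 and 5.57 TPM and between 2.41 and 4.09 TPM (−0.46 ± 0.14, adjusted p = 0.039). The call was lost in 15 of 26 other settings for *Rab3c* and in 12 of 26 for *Rab3b*, and none of the 3 Rab3 genes passed with size factors from the neuronal list. Among the active zone and priming genes, 5 of the 6 did not pass. *Rims1* was lower (−0.34 ± 0.11, adjusted p = 0.047), a call that was lost in 18 of 26 other settings, while its relative *Rims2*, another scaffold that links vesicles to calcium channels, differed by −0.08 ± 0.07. *Unc13a*, with the motif shown above, lay between 23.0 and 27.8 TPM in brachial and between 21.5 and 29.3 TPM in lumbar libraries (−0.04 ± 0.07, adjusted p = 0.74). *Unc13b* was at 0.17 ± 0.08 (adjusted p = 0.16), *Bsn* at −0.31 ± 0.23 and *Pclo* at −0.43 ± 0.28. The summed TPM of these 6 genes ranged from 106 to 143 in brachial and from 108 to 120 in lumbar libraries. Whether the active zone class differs from the other classes was not tested.

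The shares within families show where paralogs parted between the levels. *Syt1* made up 87.9% ± 1.81 (SD, n = 6) of *Syt1* and *Syt2* in brachial and 91.6% ± 0.915 in lumbar libraries. *Sv2a* made up 68.8% ± 1.16 and 73.9% ± 2.46 of the SV2 genes. In both families, as for *Syp*, the 6 libraries of one level did not overlap those of the other. *Cplx1* made up 63.2% ± 4.48 and 53.1% ± 4.02 of the complexins and *Syn2* 63.6% ± 11.3 and 51.4% ± 5.76 of the synapsins, with overlap. *Rab3a* made up 64.4% to 67.0% of the Rab3 genes in brachial and 61.8% to 63.0% in lumbar heterozygotes, without overlap. In brachial *Isl2* KO its share ran from 52.2% in library 3 to 64.4%, and in lumbar *Isl2* KO from 60.3% to 62.9%. These shares are descriptions with no test, and they follow in part from the same values as the differences above.

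**Figure D4:**
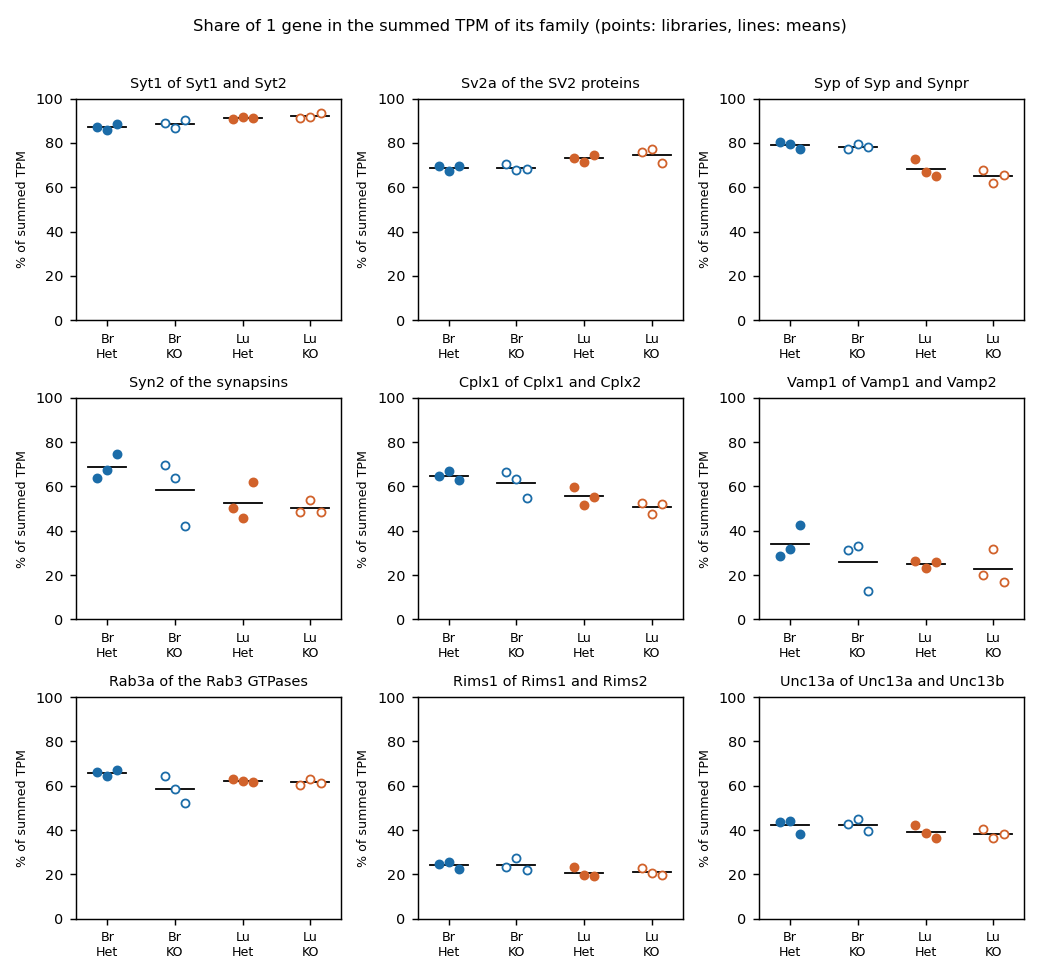
Share of 1 gene in the summed TPM of its family, in percent, in brachial (Br) and lumbar (Lu) libraries of *Isl2* heterozygotes (Het) and *Isl2* KO, with a point for each library and a line at each group mean. The share of *Syp* lies between 77.2% and 80.5% in brachial and between 62.1% and 72.8% in lumbar libraries, the shares of *Syt1* and *Sv2a* are higher in all lumbar libraries, and those of *Vamp1*, *Syn2* and *Rab3a* scatter most in the brachial *Isl2* KO group.

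Markers of cell types were read beside the level difference. Of 16 genes of neurons in general, 2 were lower at the lumbar level (*Nefm* −0.42 and *Mapt* −0.36) and none higher, with a median of −0.12. Of 14 genes of progenitors and cycling cells, 8 were higher (among them *Top2a* at 0.98 and *Mki67* at 0.72) and 3 lower, with a median of 0.36. Their summed TPM overlapped between the levels, at 7579 to 8724 in brachial and 6565 to 8369 in lumbar libraries for the neuronal list, and at 2670 to 3536 and 2728 to 3241 for the progenitor list. Of 9 MN genes 2 were lower, the peripherin gene *Prph* (−2.62) and the choline transporter gene *Slc5a7* (−1.10), with a median of 0.09. Their summed TPM was 459 to 530 in brachial and 204 to 343 in lumbar libraries, of which *Prph* took 284 and 48.4 TPM on average. Of the 7 genes each of endothelium and of microglia, 4 were lower in each list, with summed TPM of 65.0 to 88.4 against 54.2 to 68.5 and of 18.6 to 29.3 against 8.48 to 17.0. With size factors taken from the neuronal list in place of all genes, 15 of the 36 genes were lower (background 4.68%) and 3 higher (*Syt13*, *Synpr* and *Unc13b*, background 17.8%), and *Syt1*, *Napb*, *Rims1*, *Rab3a*, *Rab3b* and *Rab3c* no longer passed. The part of cell composition in the level difference beyond this scaling was not tested. Without the 3 libraries that stood apart, 17 were lower (background 7.76%) and 2 higher (*Syt13* and *Unc13b*, background 6.65%), and *Sv2a*, *Syt7*, *Rab3c*, *Rims1* and *Synpr* no longer passed.

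The other genes of the vesicle cycle, 116 that could be matched of 117 listed, were read in the same fit. Of the 103 tested, 30 (29.1%, background 9.65%) were lower at the lumbar level and 4 (3.88%, background 8.88%) higher, with a median of −0.19. The largest lower differences were those of *Sncb* (−1.27 ± 0.25), which encodes β-synuclein, *Cadps2* (−0.96 ± 0.10), a priming factor of dense core vesicles, and *Lin7b* (−0.92 ± 0.18), a presynaptic adaptor. They were followed by *Pacsin1* (−0.86 ± 0.16), which bends membrane during endocytosis, and *Rab27a* (−0.79 ± 0.22), a GTPase of secretory granules. The 4 higher genes were *Slc18a2* (0.47 ± 0.15), the vesicular monoamine transporter, and *Stxbp3* (0.29 ± 0.08), *Snap23* (0.25 ± 0.06) and *Vamp3* (0.24 ± 0.08), whose proteins serve membrane fusion in cells of many kinds. By group, 10 of 20 further active zone and priming genes were lower, 8 of 24 vesicle proteins, 3 of 8 calcium sensors, 5 of 28 genes of vesicle endocytosis, and 4 of 19 SNAREs and regulators, of which 3 others were higher. The groups are small, and their counts are descriptions to be read against the same backgrounds of 9.65% lower and 8.88% higher.

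The second comparison was between *Isl2* KO and heterozygotes at the brachial level. No gene among the 36 passed the threshold of the study in either direction, against 2.23% of the 16935 genes tested that were higher and 0.874% that were lower. None passed an adjusted p of 0.05 either (limma, background 0.0059%). At an unadjusted p under 0.05, 6 of the 36 were higher in *Isl2* KO (16.7%, background 6.67%) and none lower (background 7.13%). The median log2 difference was 0.15 against −0.01 for all genes, and 26 of the 36 values were above 0 (background 48.2%). With size factors from the neuronal list the median was 0.04 (all genes −0.12) and 3 genes had an unadjusted p under 0.05, and with values as deposited it was 0.33 (all genes 0.16). It lay between 0.13 and 0.24 with 1 library left out, the highest without the heterozygote library 2. With 3 libraries against 3, an exact two-sided permutation test of a single gene cannot go below p = 0.1.

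*Syt1* had the smallest p at the brachial level. It had 45.8, 48.0 and 43.9 TPM in heterozygotes and 52.9, 58.9 and 64.4 TPM in *Isl2* KO, so that the genotypes did not overlap (0.35 ± 0.09, unadjusted p = 0.0044, adjusted p = 0.36, limma). The other 5 were *Sv2a* (0.23 ± 0.08, unadjusted p = 0.02), *Rab3c* (0.36 ± 0.13, unadjusted p = 0.023), *Stxbp5* (0.40 ± 0.15, unadjusted p = 0.032), *Rims2* (0.21 ± 0.08, unadjusted p = 0.034) and *Sv2c* (0.44 ± 0.18, unadjusted p = 0.044), each with an adjusted p of 0.36 (limma). *Sv2a* had 45.1, 45.9 and 44.6 TPM in heterozygotes and 48.2, 55.8 and 55.6 TPM in *Isl2* KO. *Rims2* had 28.0, 30.4 and 29.8 TPM and 31.8, 33.7 and 36.8 TPM. The *Isl2* KO libraries lay wholly above the heterozygotes for 5 genes, *Syt1*, *Syt11*, *Sv2a*, *Synpr* and *Rims2* (13.9%, background 9.67%), and wholly below for *Napb* and *Rab3a* (5.56%, background 10.3%).

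The largest brachial differences did not pass the threshold and were smaller without 1 library. They were those of *Syn3* (0.73 ± 0.36), *Vamp2* (0.69 ± 0.35), *Pclo* (0.67 ± 0.36), *Bsn* (0.64 ± 0.35) and *Syn1* (0.46 ± 0.34). Without the *Isl2* KO library 3, these became 0.48 for *Syn3*, 0.30 for *Vamp2*, 0.31 for *Pclo*, 0.30 for *Bsn* and 0.10 for *Syn1*, and 2 of the 36 genes had an unadjusted p under 0.05. *Syt1* was at 0.28 without that library and was 1 of these 2 genes. Leaving out the *Isl2* KO library 1 in its place, 7 genes passed the threshold of the study, *Syn3*, *Vamp2*, *Pclo*, *Bsn*, *Rab3c*, *Stxbp5* and *Sv2c*, while the share of all genes that were higher also grew, from 2.23% to 6.24%. *Syn3* and *Vamp2* also passed with values as deposited (7.15% of all genes higher), and *Syn3* without the heterozygote library 2 (3.28%). *Syn1*, *Syn3*, *Vamp2*, *Bsn* and *Pclo* also lay more than 0.5 below the mean of the other brachial libraries in the heterozygote library 3. Without all 3 libraries that stood apart, 1 gene had an unadjusted p under 0.05 at the brachial level and the median was 0.09. The neuronal list had a median of 0.13 at this level, with 11 of 16 values above 0, and its summed TPM was 8000.1 to 8724 in heterozygotes and 7579 to 7753 in *Isl2* KO. All 9 blood genes were above 0 (median 0.48), with a summed TPM of 2487 to 4192 in heterozygotes and 3467 to 7078 in *Isl2* KO. Of the 9 MN genes 5 were above 0 (median 0.06) and 3 were lower at an unadjusted p under 0.05 (limma). The lower ones included the disrupted *Isl2* itself. The summed TPM of the 9 genes was 517 to 530 in heterozygotes and 459 to 497 in *Isl2* KO. The part of these cells in the brachial values was not tested.

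At the lumbar level 35 of the 36 genes were tested, since *Doc2b* was under the filter. *Syt3* was lower in *Isl2* KO at the threshold of the study (2.86%, background 0.793%), and none was higher (background 0.975%). *Syt3* had 7.20, 6.83 and 6.42 TPM in heterozygotes and 6.81, 3.60 and 3.65 TPM in *Isl2* KO (−0.59 ± 0.24, unadjusted p = 0.039, adjusted p = 1, limma). One *Isl2* KO value, that of library 1, lay among the heterozygotes and the other 2 below them, so the genotypes overlapped. The call was lost in 11 of 19 other settings. These included leaving out any 1 heterozygote library, the *Isl2* KO library 2 or the *Isl2* KO library 3, the scaling to the neuronal list, and leaving out all the libraries that stood apart, after which 1 of the 35 genes had an unadjusted p under 0.05 and the median was −0.04.

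*Sv2b* was the other lumbar gene with an unadjusted p under 0.05, which makes 2 lower genes (background 2.25%) and no higher one (background 2.62%). It had 8.07, 7.44 and 6.71 TPM in heterozygotes and 6.42, 5.78 and 5.72 TPM in *Isl2* KO, without overlap (−0.30 ± 0.12, unadjusted p = 0.037, adjusted p = 1, limma). Values of *Isl2* KO were wholly below the heterozygotes for 4 genes, *Syt4*, *Syt13*, *Sv2b* and *Napb* (background 5.51%), and wholly above for none (background 4.43%). *Syt4* had 109.8, 112 and 111 TPM in heterozygotes and 104, 100.2 and 106 TPM in *Isl2* KO (−0.11 ± 0.06). The median log2 difference of the 35 genes was −0.12 against −0.01 for all genes, and 6 values were above 0 (background 47.4%). With size factors from the neuronal list it was −0.00 against 0.10 for all genes. With 1 library left out it lay between −0.18, without the *Isl2* KO library 1, and −0.04, without the *Isl2* KO library 2, and the genes with an unadjusted p under 0.05 numbered 0 (without heterozygote library 1 or *Isl2* KO library 3) to 6 (without *Isl2* KO library 1). The neuronal list had a median of −0.16 at this level, with 1 of 16 values above 0, and a summed TPM of 7512 to 8369 in heterozygotes and 6565 to 7428 in *Isl2* KO. The progenitor list had a median of 0.13, with 10 of 14 values above 0. Of the 14 genes, 4 were higher at an unadjusted p under 0.05 (limma, background 2.62%) and none lower. None of the 9 MN genes was above 0 (median −0.31), and 4 of them were lower at an unadjusted p under 0.05 (limma). The lower ones included the disrupted *Isl2* itself. The summed TPM of the 9 genes was 262.5 to 343 in heterozygotes and 204 to 277 in *Isl2* KO. All 9 blood genes were above 0 (median 0.42), with a summed TPM of 2452 to 3919 and 3193 to 5107. The part of these cells in the lumbar values was not tested.

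**Figure D5:**
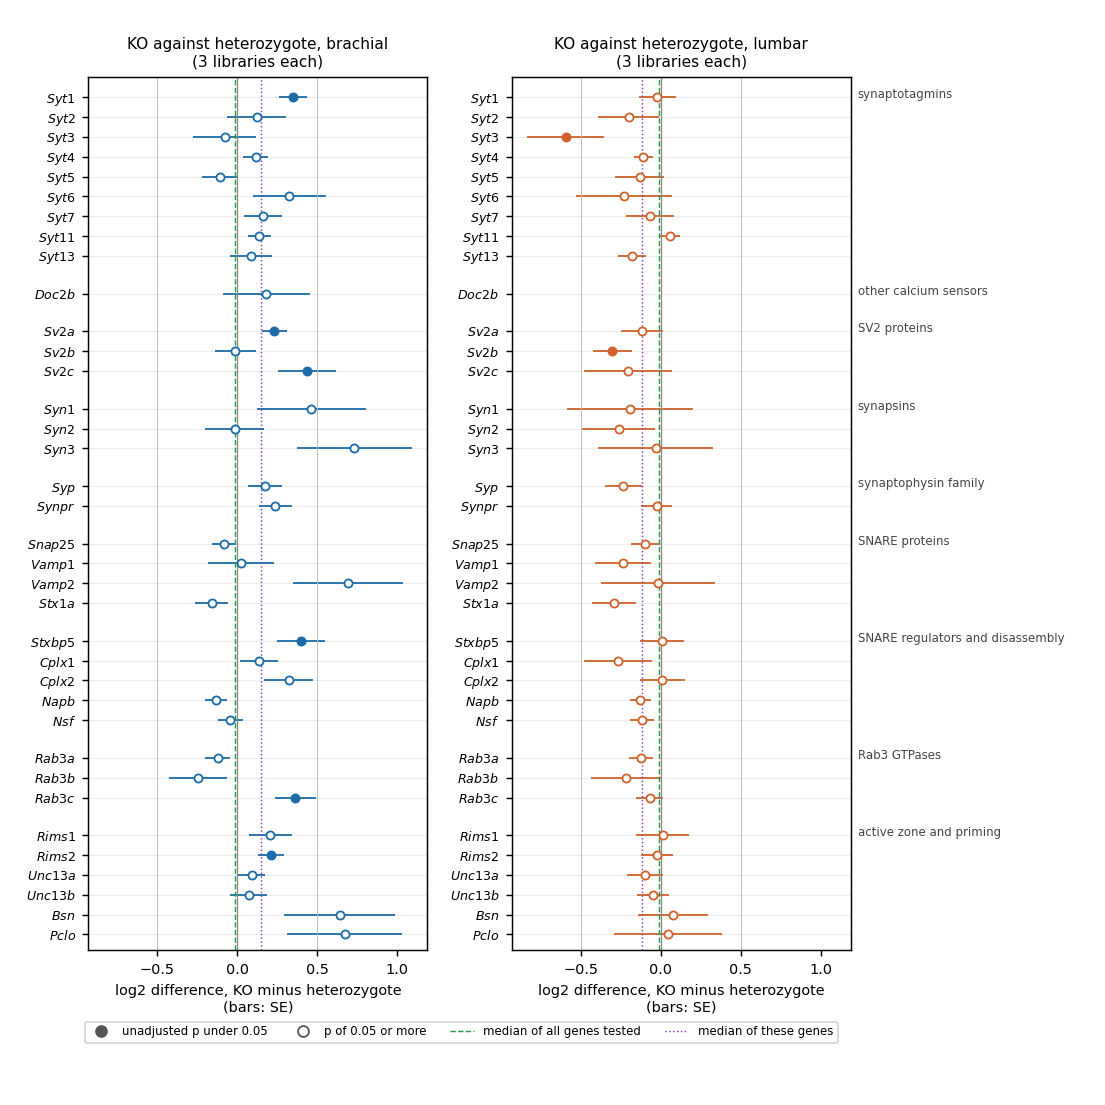
The log2 difference between *Isl2* KO and heterozygotes (3 libraries each) for each gene, brachial on the left and lumbar on the right, with bars for the SE. Filled points had an unadjusted p under 0.05, the dotted lines mark the medians of these genes (0.15 and −0.12) and the dashed lines those of all genes tested (−0.01 at both). Most brachial points lie to the right of 0 and most lumbar points to its left, and *Doc2b* has no lumbar point because it was under the filter.

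Over both levels together, with level as a covariate, none of the 36 genes differed between genotypes at an adjusted p under 0.05 (limma, background 0.0418%). At an unadjusted p under 0.05 there were 3 with lower values in *Isl2* KO (background 7.94%) and 1 with higher values (background 6.1%). The 3 were *Napb* (−0.13 ± 0.04, unadjusted p = 0.0068, adjusted p = 0.29), *Rab3a* (−0.12 ± 0.05, unadjusted p = 0.027, adjusted p = 0.33) and *Stx1a* (−0.23 ± 0.09, unadjusted p = 0.027, adjusted p = 0.33). The other was *Syt11* (0.10 ± 0.04, unadjusted p = 0.037, adjusted p = 0.34). *Napb* had 86.3, 88.3 and 91.3 TPM in brachial heterozygotes against 81.2, 84.7 and 76.7 TPM in *Isl2* KO. Its lumbar values were 72.0, 71.1 and 75.3 TPM against 68.3, 68.0 and 63.6 TPM, so that *Isl2* KO lay below heterozygotes at each level. The median over the 36 genes was 0.01. Without the 3 libraries that stood apart it was 0.02, and 3 genes had an unadjusted p under 0.05. With 1 library left out such genes numbered 1 (without the brachial *Isl2* KO library 3) to 8 (without the lumbar *Isl2* KO library 2).

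The study compared the genes called at each level to select those lower at the lumbar level only. Here the difference of the genotype effect between the levels was fitted itself. None of the 36 genes passed an adjusted p of 0.05 for it (limma, background 0%). At an unadjusted p under 0.05 there were 4 genes with a lower effect at the lumbar level (11.1%, background 2.15%) and none with a higher one (background 2.28%). These were *Rab3c* (−0.43 ± 0.16, unadjusted p = 0.02), *Syt1* (−0.37 ± 0.15, unadjusted p = 0.029), *Syp* (−0.40 ± 0.17, unadjusted p = 0.032) and *Syt4* (−0.22 ± 0.09, unadjusted p = 0.034), each with an adjusted p of 0.81 (limma). The effect was lower at the lumbar level for 34 of the 36 genes, where 49.5% of all genes had the opposite sign, and the median was −0.28 against −0.00 for all genes. The neuronal list had the same median, −0.28. With size factors from the neuronal list, the median of the 36 genes was −0.06 while that of all genes became 0.22, and no gene had an unadjusted p under 0.05. Without the 3 libraries that stood apart the median was −0.12, and again no gene had an unadjusted p under 0.05. With 1 library left out such genes numbered 0 (without the lumbar *Isl2* KO library 2) to 9 (without the brachial *Isl2* KO library 1).

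The other genes of the vesicle cycle gave few calls between genotypes. At the brachial level 3 of 104 tested were higher in *Isl2* KO at the threshold of the study and none lower (backgrounds 2.23% and 0.874%). They were *Scamp3* (0.77, unadjusted p = 0.02) and the endocytic genes *Ston2* (0.53, unadjusted p = 0.046) and *Dnm3* (0.55, unadjusted p = 0.047), each with an adjusted p of 0.36 (limma). At the lumbar level *Stx3* was lower (−0.85, unadjusted p = 0.009, adjusted p = 1) and *Stx4a* higher (0.58, unadjusted p = 0.031, adjusted p = 1) among 101 tested (limma). Both encode syntaxins of plasma membranes. The backgrounds at this level were 0.793% lower and 0.975% higher, and these few calls at either level are near what all genes gave. The brachial median was 0.05 and the lumbar median −0.07.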

How the data were processed

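The authors trimmed reads with Trimmomatic 0.38 after FastQC 0.11.7, mapped them to mm10 with HISAT2 2.1.0 and Bowtie2 2.3.4.1, and quantified each library with StringTie 2.1.3b. Libraries were made with a stranded total RNA kit after removal of ribosomal RNA. The deposited TPM values, scaled to a fixed total of 1000000 over the genes of a library, were the starting point of all results. The deposited FPKM values are a constant multiple of TPM within a library. The deposited coverage values, the mean per-base coverage of a gene, were used as an alternative and, over FPKM, to read the aligned bases (one ratio in 93.2% to 95.0% of single-transcript genes). No counts are given, so the DESeq2 comparison used by the authors could not be run, nor counting intervals given.

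Symbols, coordinates and promoters were taken from RefSeq for GRCm38.p6 (45679 of 45777 identifiers matched). Size factors were medians of ratios. Values of log2(TPM / size factor + 0.1) entered lmFit and eBayes (with trend) of limma 3.58.1 under R 4.3.3, for genes whose mean TPM reached 0.5. Tables were read with Python 3.11.15, pandas 2.3.3 and numpy 2.4.6, and plots drawn with matplotlib 3.10.9. The brachial genotype fit and the level fit were tested on simulated data, and the other fits were not. Groups came from the labels. Nothing says how the libraries were split from the animals, so p-values measure the spread between these libraries. All 36 genes are named, with the further vesicle genes past an adjusted p of 0.05 between levels (up to 5 of largest difference in each direction) and past the threshold of the study between genotypes (up to 5 of smallest p in each direction). The 36 genes, the marker and pathway lists and the tests were chosen with earlier results of these data known. Another 27 settings were tried, 1 of them (leaving out the 3 libraries that stood apart) added after seeing the data.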

Additional observations from a re-analysis of the deposited data

Results flagged for a closer look

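Among the 6 libraries of a level, a gene's highest or lowest library stood far from the rest in 5 of 72 sets of values, where chance gives about 1 in 20. The brachial *Isl2* KO library 3 was the far one in 4 of these. It had 25.5 TPM of *Vamp2* against 6.63 to 12.7 in the other 5 brachial libraries, 8.87 TPM of *Syn1* against 2.78 to 4.83, 10.9 TPM of *Syt5* against 13.2 to 14.2, and 151.7 TPM of *Rab3a* against 173 to 183. The lumbar *Isl2* KO library 2 had 4.28 TPM of *Syn2* against 7.33 to 8.24 in the other 5 lumbar libraries.

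The effect of *Isl2* KO differed between the levels at an unadjusted p under 0.05 (interaction term in limma) for *Rab3c* (lumbar minus brachial −0.43), *Syp* (−0.40), *Syt1* (−0.37) and *Syt4* (−0.22), none of which passed the adjustment.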

How the results depend on the processing

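Of the 23 level calls, 14 held in all 24 settings that kept both genotypes, *Doc2b* being untested at a minimum of 1 TPM. Lower genes numbered 7 in heterozygotes alone and 5 in *Isl2* KO alone (2.03% and 0.934% of all genes, against 9.65%), with medians of −0.24 and −0.52 against −0.38 in all libraries, a difference between genotypes that is the interaction given above, and 18 to 21 when each library was left out. Higher genes numbered 1 with values as deposited, with coverage and in heterozygotes alone, 0 in *Isl2* KO alone, and 1 to 3 when each library was left out, with 1 without lumbar heterozygote library 2 or 3, when *Synpr* did not pass, and 3 without brachial *Isl2* KO library 3. At the brachial level 6 genes were higher in *Isl2* KO with values as deposited (*Rab3c*, *Stxbp5*, *Sv2c*, *Syn3*, *Syt1* and *Vamp2*; 7.15% of all genes), and 0 to 7 when each library was left out, with 3 without heterozygote library 2 (3.28% of all genes) and 7 without *Isl2* KO library 1 (6.24%). Genes with an unadjusted p under 0.05 there numbered 1 without heterozygote library 1 and 13 without *Isl2* KO library 1 (limma). At the lumbar level 0 genes were lower without a filter, with values as deposited, with size factors from the neuronal list, with coverage, with eBayes without a trend and without the libraries that stood apart, and 0 to 1 when each library was left out. The interaction median was −0.059 with size factors from the neuronal list. Leaving out single libraries took the median over both levels from 0.01 to values of −0.03 to 0.047, so its sign was not stable. Of 616 values of single called genes under other settings none reversed and 94 lost their call. The cause of these changes was not tested.

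Scaling moved the median of all genes by 0.17 (as deposited) and −0.11 (neuronal list) at the brachial level, 0.11 (neuronal list) at the lumbar level, −0.14 and 0.15 between levels, and −0.16 and 0.22 for the interaction. Of all genes, 13.2% were then lower and 3.86% higher between levels as deposited, and 4.68% and 17.8% with the neuronal list.

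Libraries of the same replicate number did not all deviate together, with correlations of 0.081, 0.23 and 0.012 between genotypes at the brachial and 0.14, −0.21 and −0.088 at the lumbar level, and of −0.024, 0.2 and 0.34 (heterozygotes) and 0.029, −0.22 and 0.069 (*Isl2* KO) between levels, and 3 of 6 same-numbered brachial and lumbar pairs differed in embryo sex. With replicate number as a replicate block, 18 genes were lower and 2 higher between levels (7.77% and 6.15% of all genes; *Syt7*, *Rab3c* and *Rims1* no longer passed), 0 passed at the brachial level, *Syt3* alone passed at the lumbar level, and 0 passed the adjustment for the interaction. The DESeq2 alternatives were not run, since the tables hold no counts.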
